A study of Mus musculus with 12 samples.

Results

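A set of 40 genes known to be induced by type I interferon was followed in the mouse macrophage line RAW 264.7. The members were chosen by name, as genes of the interferon response, with earlier results of these data known. Each was matched to the row of the deposited count table with the same gene name. All 40 were found among 39179 rows, and all 40 were among the 13121 genes with enough reads to be tested. The members were then separated by their response to oxidised low-density lipoprotein (OxLDL) into those lowered in both lines compared and those raised in the line carrying an shRNA against PHLPP1.

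RAW 264.7 is a macrophage-like line of BALB/c origin. Both lines were made from these cells by nucleofection of a short hairpin construct and selection with puromycin. One construct targets luciferase (sh-Luc, the control, which has no target in mouse cells) and the other targets PHLPP1 (sh-PHLPP1), a phosphatase known to act on AKT and other kinases. Each line was sequenced untreated and after 24 h with 100 µg/ml OxLDL, which scavenger receptors carry into macrophages. The untreated sh-Luc, OxLDL-treated sh-Luc, untreated sh-PHLPP1 and OxLDL-treated sh-PHLPP1 groups held 3 RNA-seq libraries each, 12 in all, from passages 9, 10 and 11 of the cells, which are replicates 1, 2 and 3 of every group. Every comparison therefore rests on 1 line per construct. The main p-values use a spread between cultures that is estimated jointly over all 4 groups, and not the spread between independently made lines.

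As background, type I interferons bind the receptor made of IFNAR1 and IFNAR2, which signals through the kinases TYK2 and JAK1 to a transcription factor complex that contains IRF9. This complex binds the interferon-stimulated response element (ISRE) in front of antiviral genes. Macrophages are known to keep a low level of these genes switched on through interferon-β of their own. A subset is also known to be induced directly by the transcription factor IRF3 downstream of Toll-like receptors and of RNA and DNA sensors.

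The start-site windows of 8 members are printed because these members carry the contrast described further on: Rsad2, Ifit1, Oasl1, Isg15 and Ifih1 were higher after OxLDL in the sh-PHLPP1 line, while Cmpk2, Ifit3 and Ddx58 are a neighbour or relative of 1 of them and were not. Each window runs 5′ to 3′ on the strand of the gene, from 250 bases before to 50 bases after the RefSeq transcription start (build GRCm38.p6). Capitals mark every match to the ISRE core GAAANNGAAA on either strand, where the reverse complement reads TTTCNNTTTC.
Rsad2 (chr12:26456403-26456702, minus strand): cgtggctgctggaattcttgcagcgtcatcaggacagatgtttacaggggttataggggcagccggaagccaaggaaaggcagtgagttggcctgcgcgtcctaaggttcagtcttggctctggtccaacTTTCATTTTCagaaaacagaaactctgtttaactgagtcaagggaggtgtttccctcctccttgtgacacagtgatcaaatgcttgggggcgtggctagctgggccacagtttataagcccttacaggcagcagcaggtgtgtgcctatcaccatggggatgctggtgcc
Cmpk2 (chr12:26468965-26469264, plus strand): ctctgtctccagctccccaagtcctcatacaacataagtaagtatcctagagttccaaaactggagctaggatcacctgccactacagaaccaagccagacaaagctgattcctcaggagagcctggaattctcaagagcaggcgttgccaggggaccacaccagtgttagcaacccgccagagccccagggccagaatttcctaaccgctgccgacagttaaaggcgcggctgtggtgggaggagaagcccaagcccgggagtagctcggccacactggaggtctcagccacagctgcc
Ifit1 (chr19:34640639-34640938, plus strand): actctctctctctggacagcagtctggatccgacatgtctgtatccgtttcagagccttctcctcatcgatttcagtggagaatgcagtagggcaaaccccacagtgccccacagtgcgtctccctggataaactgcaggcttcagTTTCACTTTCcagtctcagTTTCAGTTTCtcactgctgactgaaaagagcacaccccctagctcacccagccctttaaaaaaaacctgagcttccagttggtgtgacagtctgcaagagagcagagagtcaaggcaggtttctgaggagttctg
Ifit3 (chr19:34583279-34583578, plus strand): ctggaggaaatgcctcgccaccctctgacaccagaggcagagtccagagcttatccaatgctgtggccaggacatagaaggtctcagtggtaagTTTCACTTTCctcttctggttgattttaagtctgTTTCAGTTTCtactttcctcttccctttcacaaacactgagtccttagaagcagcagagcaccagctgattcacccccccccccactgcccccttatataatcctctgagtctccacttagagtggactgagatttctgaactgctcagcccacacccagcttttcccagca
Oasl1 (chr5:114922990-114923289, plus strand): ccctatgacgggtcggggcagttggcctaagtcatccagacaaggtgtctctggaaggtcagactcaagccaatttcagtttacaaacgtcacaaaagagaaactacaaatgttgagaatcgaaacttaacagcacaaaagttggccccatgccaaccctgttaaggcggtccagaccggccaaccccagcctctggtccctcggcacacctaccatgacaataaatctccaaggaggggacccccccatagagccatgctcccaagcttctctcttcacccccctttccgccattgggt
Isg15 (chr4:156200769-156201068, minus strand): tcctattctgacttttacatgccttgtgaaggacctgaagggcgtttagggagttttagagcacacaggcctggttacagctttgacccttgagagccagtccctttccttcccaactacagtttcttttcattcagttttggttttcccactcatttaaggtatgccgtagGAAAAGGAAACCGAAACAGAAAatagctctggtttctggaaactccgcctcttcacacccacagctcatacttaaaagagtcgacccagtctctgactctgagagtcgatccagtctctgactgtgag
Ifih1 (chr2:62646206-62646505, minus strand): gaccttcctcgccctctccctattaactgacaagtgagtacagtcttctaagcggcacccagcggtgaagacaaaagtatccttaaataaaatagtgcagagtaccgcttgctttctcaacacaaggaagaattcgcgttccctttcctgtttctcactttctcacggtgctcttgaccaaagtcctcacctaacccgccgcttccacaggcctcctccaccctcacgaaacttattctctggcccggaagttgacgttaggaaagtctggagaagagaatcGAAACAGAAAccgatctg
Ddx58 (chr4:40239776-40240075, minus strand): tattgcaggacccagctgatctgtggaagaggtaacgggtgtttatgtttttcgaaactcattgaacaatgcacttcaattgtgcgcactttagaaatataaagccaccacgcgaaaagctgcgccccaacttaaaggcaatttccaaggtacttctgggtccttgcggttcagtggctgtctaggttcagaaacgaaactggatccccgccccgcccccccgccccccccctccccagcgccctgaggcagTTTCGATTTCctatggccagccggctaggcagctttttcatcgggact

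The ISRE core stood in the window of 15 of the 29 members that had a RefSeq window, while 3.44% of all 32851 windows held it. Isg15, whose product is a ubiquitin-like modifier, had 3 overlapping cores between bases -78 and -57 from the start. Ifit1 had a core at -104 to -95 and another at -85 to -76, and Ifit3 had cores at -156 to -147 and at -122 to -113. The core of Rsad2 lay at -120 to -111. Ifih1 and Ddx58 carried theirs after the start, at 33 to 42 and at 3 to 12. Cmpk2 and Oasl1 had no match in the window, nor had Oasl2.

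Among members with a window, the ISRE core was found in 6 of the 16 that OxLDL lowered in both lines and in 4 of the 5 that it raised in sh-PHLPP1. It was also found in 2 of the 4 called lower in sh-Luc alone and in 3 of the 4 called in neither line. Matches to other motifs were fewer. The STAT element GAS, written TTCNNNGAA, was found in 5 of the 29 members and in 8.3% of all windows. The AP-1 element TGANTCA was found in 9 members and in 7.81% of windows, and the NF-kB consensus in 5 members and in 8.46%. Rsad2 was the member raised in sh-PHLPP1 that held an AP-1 match, at -87 to -81, and Oasl1 the one that held an NF-kB match, at -14 to -4 in 2 overlapping copies. All motifs were searched on both strands, and matches of different motifs overlapped one another in Bst2 and Ifit2. These matches describe letters in a fixed window and no binding was measured.

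Libraries held between 16020186 and 27422114 counted reads, so that 3 reads of a gene correspond to 0.0998 to 0.222 CPM (a gene's reads relative to the size of its library, scaled for composition by the TMM method). The labelled cell type was met by macrophage markers: 8 genes including Lyz2, Cd68 and Csf1r summed to at least 10760 CPM in every library. Of these 8, Mertk had no read in untreated sh-Luc. The T cell gene Cd3e had no read, and the list of 2 lymphoid and endothelial markers that holds it summed to at most 0.770 CPM. Of 7 fibroblast and epithelial markers, Epcam, Cdh1 and Krt18 had no read in any group, and the 3 with enough reads to be tested were collagen genes, Col1a1, Col1a2 and Col3a1. All 3 were called higher by edgeR with OxLDL in sh-PHLPP1 (log2 1.71, 1.06 and 1.32, adjusted p = 0.0282, 0.0487 and 0.0387), where 26.2% of all genes were, and none in sh-Luc. The sum of the 7 markers stayed at 1.10 to 1.98 CPM in untreated and 2.90 to 4.85 CPM in OxLDL-treated sh-PHLPP1, against 1.15 to 2.91 and 1.45 to 3.20 CPM in sh-Luc. The targeted gene Phlpp1 stood at 12.4, 14.4 and 13.3 CPM in untreated sh-Luc and at 17.3, 14.6 and 14.0 in untreated sh-PHLPP1, so it was not lower in the untreated cells labelled sh-PHLPP1 (log2 difference 0.19, adjusted p = 0.279). With OxLDL the level fell below that of sh-Luc, at 8.65, 8.35 and 7.40 CPM against 11.4, 13.5 and 11.4 (log2 difference -0.57, adjusted p = 0.00385). The name sh-PHLPP1 is used throughout for the libraries that carry this label.

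In 3 of the groups 1 library stood apart from its replicates: untreated sh-Luc replicate 2, untreated sh-PHLPP1 replicate 1 and OxLDL-treated sh-PHLPP1 replicate 3. The first of these bears on the interferon-induced genes directly. Untreated sh-Luc replicate 2 was the lowest of its group for 38 of the 40 members, with a median of -0.85 on the log2 scale against the mean of the other libraries of the group, where the median over all genes was 0. In the same library the summed osteoclast markers were at 671 CPM, against 254 and 268 in its replicates, and Socs3, a feedback inhibitor of cytokine signalling, was at 61.8 CPM against 24.6 and 27.8. Over the groups, the 8 osteoclast markers summed to 254 to 671 CPM in untreated and 395 to 540 in OxLDL-treated sh-Luc, and to 108 to 185 in untreated and 698 to 818 in OxLDL-treated sh-PHLPP1, with Calcr at 0 in all groups. The high sum in OxLDL-treated sh-PHLPP1 came from Mmp9, a protease gene also expressed by macrophages, at 630, 689 and 735 CPM. Of the 6 osteoclast markers tested, 5 were called lower in sh-PHLPP1 than in sh-Luc after OxLDL (Ctsk, Acp5, Dcstamp, Ocstamp and Nfatc1) and Mmp9 was called higher, with a median log2 difference of -1.82. In that comparison 27.6% of all genes were called in each direction. With OxLDL in sh-PHLPP1, Mmp9 rose, Nfatc1 fell and the other 4 were not called. The macrophage markers summed to 16149 to 19363, 18384 to 20314, 10760 to 12832 and 15832 to 18287 CPM in the same order. The part of these differences in the results was not tested. Member calls with OxLDL that were gained without untreated sh-Luc replicate 2 are given below.

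Counted together, the 40 members held 5447, 3525 and 5638 CPM in untreated sh-Luc and 2311, 2456 and 2457 CPM after OxLDL. In sh-PHLPP1 they held 4737, 5012 and 4957 CPM untreated and 4615, 4494 and 4834 CPM after OxLDL. The sum thus fell in every sh-Luc library with OxLDL, while in sh-PHLPP1 the ranges of the sum with and without OxLDL lay close together. Within that sum single members moved in opposite directions, as the map of all members by library shows. Fewer cells expressing a gene and less RNA per cell cannot be told apart in these bulk libraries.

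**Figure D1:**
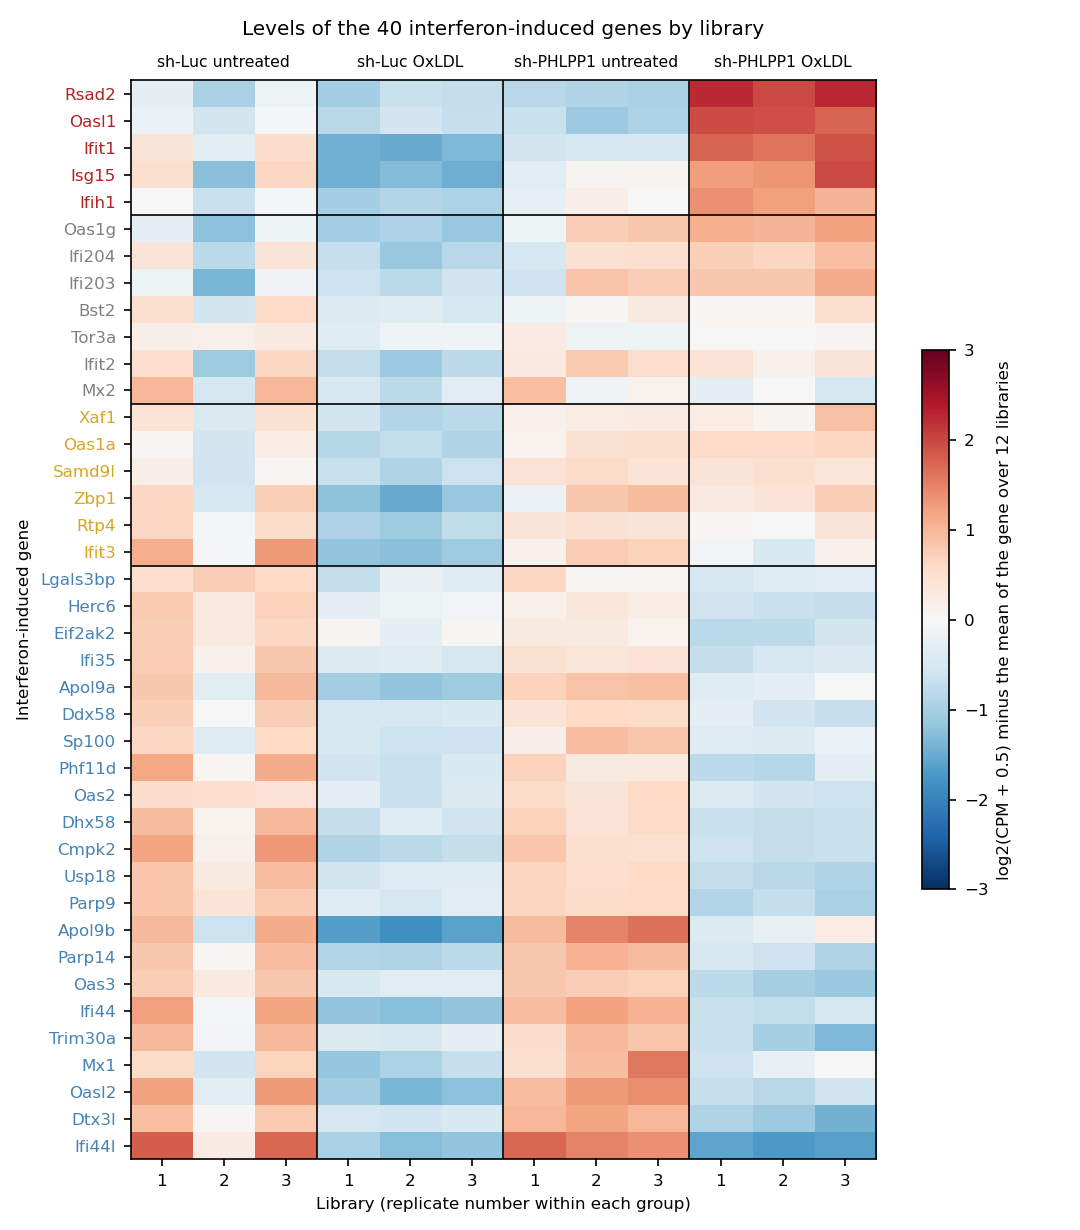
Level of each of the 40 genes (rows) in each of the 12 libraries (columns, by group and replicate number), as log2(CPM + 0.5) minus the mean of the gene over all libraries; label colours and lines separate the genes called higher with OxLDL in sh-PHLPP1 (red), called in neither line (grey), called lower in sh-Luc and not called in sh-PHLPP1 (yellow) and called lower in both lines (blue). The 5 red genes are high in the 3 OxLDL-treated sh-PHLPP1 libraries, the 22 blue genes are low in both OxLDL groups, and untreated sh-Luc replicate 2 is lower than its replicates for 38 of the 40.

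The first comparison asks what OxLDL did to these genes in the control line. In sh-Luc, 31 of the 40 members were called lower after OxLDL at an adjusted p under 0.05 (edgeR quasi-likelihood test, adjusted over all genes), where 3.09% of all genes tested were called lower. Since the members were chosen with earlier results of these data known, the shares of all genes here and below give no independent test. Every member had a log2 fold change below 0 and 0 were called higher, whether by edgeR at an adjusted p, by its unadjusted p under 0.05 or by DESeq2, against 6.38% of all genes called higher. The median log2 fold change was -1.08 over the members and -0.00 over all genes. For 33 members the 3 treated libraries all lay below the 3 untreated ones, as did 21.4% of all genes. The count of 31 ranged from 22 to 38 when 1 library was left out, with 38 reached without untreated sh-Luc replicate 2, and it was 40 without both untreated libraries that stood apart. It was 36 without untreated sh-PHLPP1 replicate 1, a library of the other line that enters the shared estimate of the spread. In these 3 fits, in that order, 414 of 13334, 1460 of 13331 and 1321 of 13400 genes were called lower.

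The same comparison in the sh-PHLPP1 line gave members in both directions. Called lower were 22 members, where 28.4% of all genes were called lower, and called higher were 5 members, where 26.2% of all genes were. The share of members called higher was below that of all genes, and the share called lower above it. The median log2 fold change was -0.93 over the members and -0.03 over all genes. Leaving out each library in turn gave 22 or 23 members called lower and 5 or 6 called higher.

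Put together, the calls split the members into 4 classes, which describe these libraries and carry no test of their own. Lowered in both lines were 22 members, 55% of the set, where 2.49% of all genes tested met the same rule: Apol9a, Apol9b, Cmpk2, Ddx58, Dhx58, Dtx3l, Eif2ak2, Herc6, Ifi35, Ifi44, Ifi44l, Lgals3bp, Mx1, Oas2, Oas3, Oasl2, Parp14, Parp9, Phf11d, Sp100, Trim30a and Usp18. Raised in sh-PHLPP1 were 5 members: Ifih1, Ifit1, Isg15, Oasl1 and Rsad2. Of these, Ifih1, Ifit1 and Isg15 were also called lower in sh-Luc, an opposite pair of calls that 0.145% of all genes showed. Ifit3, Oas1a, Rtp4, Samd9l, Xaf1 and Zbp1 were called lower in sh-Luc and not called in sh-PHLPP1, and Bst2, Ifi203, Ifi204, Ifit2, Mx2, Oas1g and Tor3a were called in neither line. Without untreated sh-Luc replicate 2, Rsad2 (-0.58, adjusted p = 0.0159) and Oasl1 (-0.56, adjusted p = 0.025) were also called lower in sh-Luc by edgeR. So were Bst2, Ifi204, Ifit2, Mx2 and Oas1g (adjusted p between 0.000183 and 0.0309). In that fit Oas1g was also called higher in sh-PHLPP1 (0.56, adjusted p = 0.0267).

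**Figure D2:**
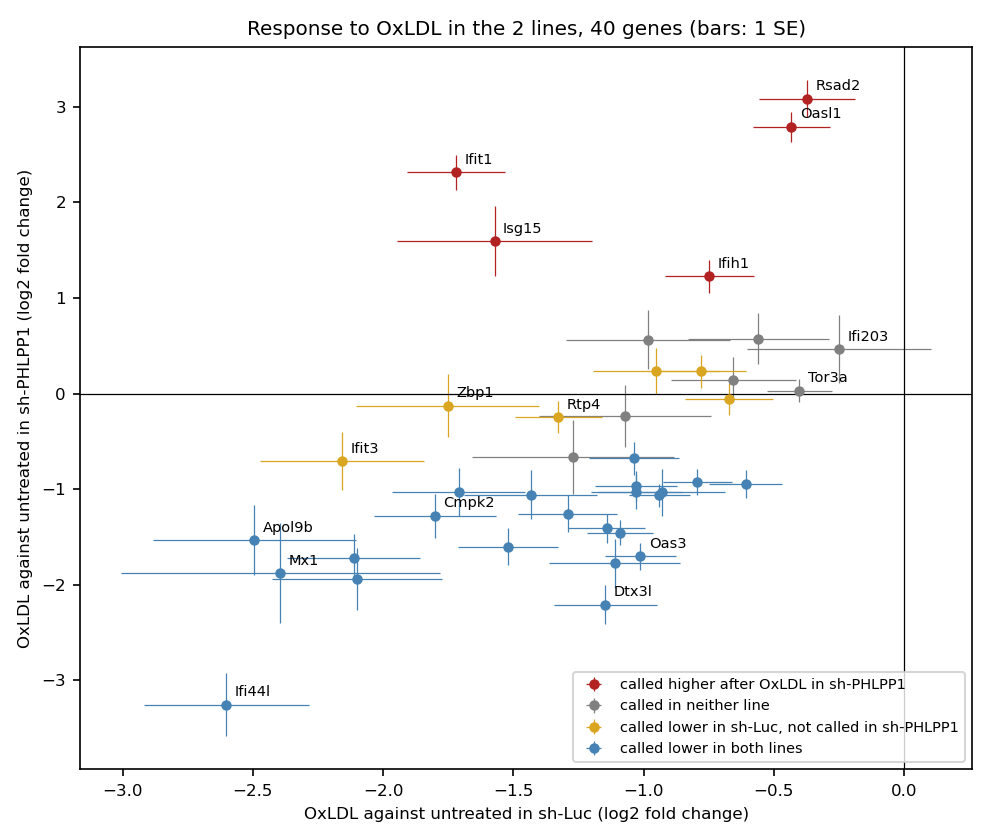
Log2 fold change with OxLDL in sh-Luc (horizontal axis) and in sh-PHLPP1 (vertical axis) for each of the 40 genes, with bars of 1 standard error and colours by class. All points lie left of 0 on the horizontal axis, and Rsad2, Oasl1, Ifit1, Isg15 and Ifih1 lie between 1.22 and 3.08 on the vertical axis.

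The split ran through the family of cytosolic RNA sensors. Ifih1 encodes MDA5, which detects long double-stranded RNA. It stood at 91.6, 58.4 and 89.2 CPM in untreated sh-Luc and at 45.3, 49.6 and 47.6 with OxLDL, and at 78.2, 106 and 92.2 in untreated sh-PHLPP1 and at 241, 218 and 187 with OxLDL. In neither line did treated and untreated libraries overlap, and the direction was opposite: a log2 fold change of -0.75 ± 0.17 (SE) in sh-Luc (adjusted p = 0.017) and of 1.22 ± 0.17 in sh-PHLPP1 (adjusted p = 9.67e-05). The sh-Luc call was lost without any 1 of the 5 sh-Luc libraries other than untreated replicate 2, with an adjusted p of up to 0.0849 and a log2 fold change of at most -0.63.

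Ddx58, which encodes RIG-I, the sensor of RNA with a triphosphate end, fell by about the same amount in both lines. Its levels were 206, 127 and 209 CPM untreated and 86.5, 87.6 and 91.3 with OxLDL in sh-Luc, and 167, 191 and 182 untreated and 104, 83.8 and 76.9 with OxLDL in sh-PHLPP1. No treated library reached an untreated one, and the log2 fold change was -1.03 ± 0.17 in both lines (adjusted p = 0.00326 in sh-Luc and 0.000387 in sh-PHLPP1). The difference between these responses was -0.00 with an approximate 95% interval from -0.48 to 0.48.

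Dhx58 encodes LGP2, a regulator of both sensors that lacks their signalling domain. It fell from 94.9, 53.2 and 96.8 CPM to 30.0, 37.4 and 32.6 in sh-Luc, and from 79.6, 66.4 and 72.9 to 30.9, 29.9 and 30.9 in sh-PHLPP1. The treated libraries of the lines overlapped one another and lay below every untreated library, with log2 fold changes of -1.29 ± 0.19 (adjusted p = 0.00126) and -1.26 ± 0.19 (adjusted p = 0.000183).

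The IFIT proteins bind viral RNA at its end and block its translation, and their genes lie together on chromosome 19. Ifit1 stood at 32.6, 19.6 and 35.8 CPM in untreated sh-Luc and at 8.82, 8.45 and 9.46 with OxLDL. In sh-PHLPP1 it stood at 16.9, 17.2 and 17.6 untreated and at 85.2, 77.7 and 94.3 with OxLDL, the highest levels of all 4 groups. The log2 fold change was -1.72 ± 0.19 in sh-Luc (adjusted p = 0.000121) and 2.31 ± 0.19 in sh-PHLPP1 (adjusted p = 1.11e-06), and the groups did not overlap in either line. Between the OxLDL-treated lines Ifit1 was 9.63-fold higher in sh-PHLPP1 (adjusted p = 2.53e-07).

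Ifit3, whose product binds and stabilises IFIT1 in human cells, fell in sh-Luc from 23.5, 10.5 and 26.9 CPM to 4.52, 4.23 and 4.92. In sh-PHLPP1 it stood at 11.9, 18.8 and 17.9 untreated and at 10.3, 7.76 and 11.8 with OxLDL. The sh-Luc groups lay far apart (-2.16 ± 0.32, adjusted p = 0.00117), while in sh-PHLPP1 the nearest treated and untreated libraries, at 11.8 and 11.9, almost met and the change was not called (-0.71 ± 0.30, adjusted p = 0.0634). Ifit3 thus lay just outside the rule for genes lowered in both lines, and it was called there without untreated sh-Luc replicate 2 (adjusted p = 0.00873), without untreated sh-PHLPP1 replicate 1 (adjusted p = 0.0235) or with the passage as a block (adjusted p = 0.045).

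Ifit2 was called in neither line, at 50.8, 16.8 and 55.3 CPM untreated and 21.5, 16.5 and 20.5 with OxLDL in sh-Luc, and at 43.4, 61.3 and 50.8 untreated and 47.0, 38.7 and 46.8 with OxLDL in sh-PHLPP1. Untreated sh-Luc replicate 2 lay among the treated libraries, and the log2 fold change in sh-Luc was -1.07 ± 0.33 (adjusted p = 0.0623). On chromosome 19, 7111 bases separate Ifit2 from Ifit3 and 52139 bases separate Ifit3 from Ifit1, all on the plus strand. The IFIT genes are close relatives, so reads could have been shared among them.

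**Figure D3:**
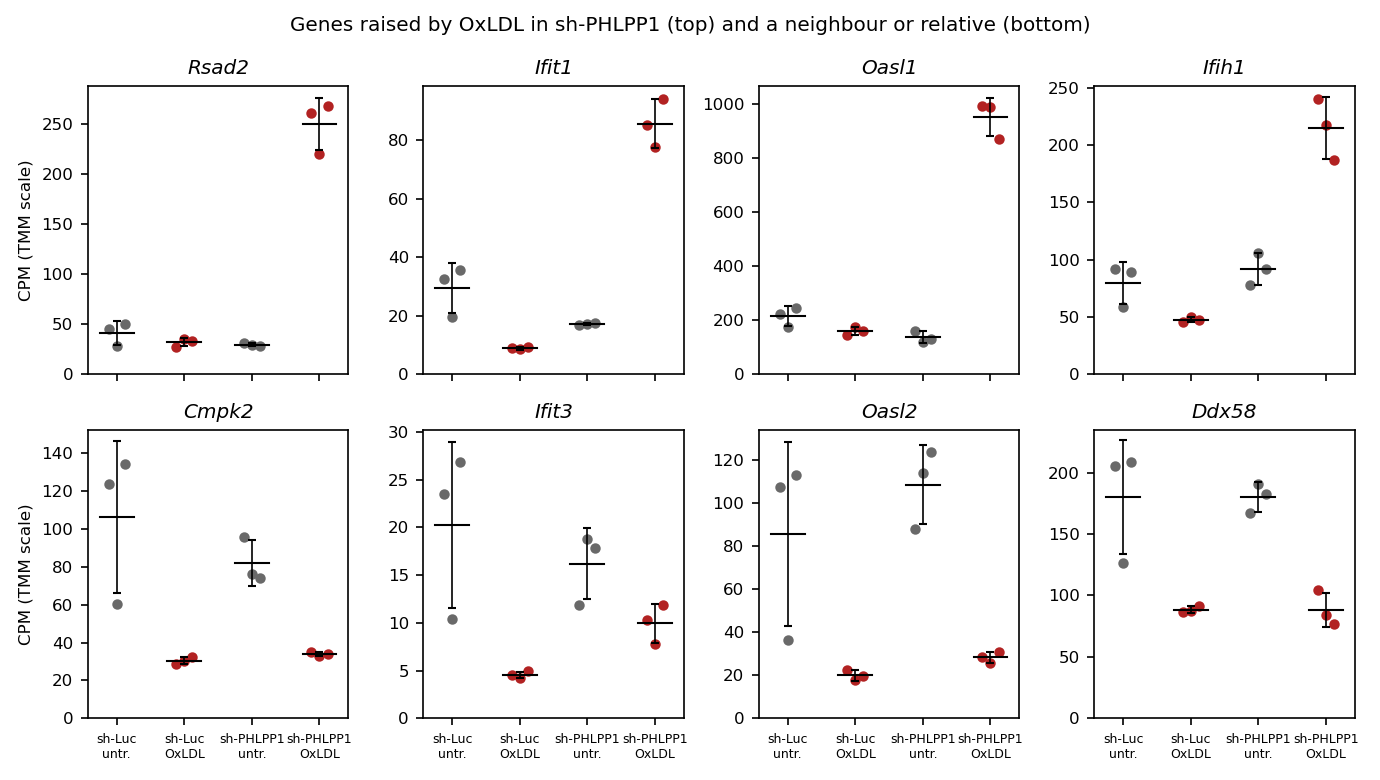
CPM in each library of Rsad2, Ifit1, Oasl1 and Ifih1 (top row) and of a neighbour or relative of each, Cmpk2, Ifit3, Oasl2 and Ddx58 (bottom row), by group, with points for libraries, red points for OxLDL, and the mean ± SD of 3 libraries as lines. The top genes are highest in OxLDL-treated sh-PHLPP1, where Rsad2 lies between 221 and 269 CPM, and the bottom genes are lower in both OxLDL groups than in the untreated sh-PHLPP1 libraries.

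Of the oligoadenylate synthetase family, which makes the messenger that activates RNase L, the OAS-like genes gave the sharpest contrast. Oasl1, in mouse an inhibitor of IRF7 translation, stood at 223, 175 and 247 CPM in untreated sh-Luc and at 145, 174 and 159 with OxLDL. In sh-PHLPP1 it stood at 161, 120.3 and 132 untreated and at 995, 991 and 871 with OxLDL. The treated sh-PHLPP1 libraries were far above all others (log2 fold change 2.79 ± 0.16, adjusted p = 6.44e-08), whereas the sh-Luc change was not called (-0.43 ± 0.15, adjusted p = 0.0883).

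Oasl2 ends 11005 bases before the start of Oasl1 on the same strand of chromosome 5, and no coding gene lies between them. Its levels fell from 107, 36.3 and 113 to 22.5, 17.7 and 19.7 CPM in sh-Luc and from 88.2, 114 and 124 to 28.6, 25.8 and 30.7 CPM in sh-PHLPP1. It was lower with OxLDL in both lines (-2.10 ± 0.33 and -1.94 ± 0.33, adjusted p = 0.00182 and 0.000356), and the difference between these responses was 0.16 with an approximate 95% interval from -0.71 to 1.04.

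The remaining synthetase genes divided as well. Oas2 (-0.94 in sh-Luc and -1.06 in sh-PHLPP1) and Oas3 (-1.01 and -1.70) fell in both lines, and they are neighbours on chromosome 5 with 3244 bases between them. Oas1a fell in sh-Luc (-0.78 ± 0.17, adjusted p = 0.0136), a call lost without replicate 1 or 3 of either sh-Luc group (adjusted p of up to 0.0691), whereas sh-PHLPP1 gave no call (0.23). Oas1g, which lies 8642 bases from Oas1a, was called in neither line. It stood at 83.6, 151 and 159 CPM untreated and 191, 184 and 211 with OxLDL in sh-PHLPP1, without overlap but not past the threshold (0.57 ± 0.27, adjusted p = 0.0874). After OxLDL all 3 sh-PHLPP1 libraries lay above those of sh-Luc, at 44.9, 47.5 and 41.3 CPM (2.13 ± 0.28, adjusted p = 7.46e-05). Oas1a and Oas1g are near-identical copies, so the division of reads between them is uncertain.

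Isg15 and its conjugation system also took both directions. Isg15 stood at 113, 33.5 and 124 CPM in untreated sh-Luc and at 29.4, 32.7 and 28.9 with OxLDL, and at 64.4, 85.7 and 86.6 in untreated sh-PHLPP1 and at 193, 202 and 321 with OxLDL. The treated sh-PHLPP1 libraries were all above every other library, with replicate 3 the highest. The log2 fold change there was 1.60 ± 0.37 (adjusted p = 0.00315), and it stayed called under each left-out library. In sh-Luc it was -1.57 ± 0.37 (adjusted p = 0.0203), a call lost without any 1 of the same 5 sh-Luc libraries (adjusted p of up to 0.0854).

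Usp18, the protease that removes ISG15 and that also damps the interferon receptor, fell in both lines (log2 fold changes of -1.14 in sh-Luc and -1.41 in sh-PHLPP1). Herc6, in mouse the main ligase that attaches ISG15, fell likewise (-0.79 and -0.92). Both were also lower in sh-PHLPP1 than in sh-Luc after OxLDL, Usp18 by -0.39 (adjusted p = 0.0392) and Herc6 by -0.51 (adjusted p = 0.00761), while Isg15 itself was 7.85-fold higher there (adjusted p = 7.74e-05). The call of Usp18 between the lines was lost without replicate 2 or 3 of either OxLDL-treated group (adjusted p of up to 0.103).

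Among the effectors, Rsad2 and Cmpk2 formed the closest pair with opposite calls. Rsad2 encodes viperin, a radical enzyme that makes a chain-terminating nucleotide from CTP, and Cmpk2 a mitochondrial nucleotide kinase. They lie head to head on chromosome 12, Rsad2 on the minus and Cmpk2 on the plus strand, with 12751 bases and no coding gene between their starts. Rsad2 stood at 45.4, 28.1 and 50.1 CPM in untreated sh-Luc and at 27.2, 34.9 and 33.3 with OxLDL, groups that overlapped (-0.37 ± 0.18, adjusted p = 0.225). In sh-PHLPP1 it stood at 31.1, 29.3 and 28.2 untreated and at 261, 221 and 269 with OxLDL. The log2 fold change of 3.08 ± 0.20 (adjusted p = 1.51e-07) was the largest rise of any member.

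Cmpk2 fell in both lines, from 124, 60.4 and 135 to 28.7, 30.3 and 32.5 CPM in sh-Luc and from 95.9, 76.0 and 74.1 to 34.9, 32.7 and 33.7 CPM in sh-PHLPP1. The treated libraries of both lines lay between 28.7 and 34.9 CPM, below every untreated library. The log2 fold changes were -1.80 ± 0.23 (adjusted p = 0.000472) and -1.28 ± 0.23 (adjusted p = 0.000636), and after OxLDL the lines differed by 0.15 (adjusted p = 0.613).

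Mx1 was the member with the fewest reads, at 1.55, 0.442 and 1.73 CPM untreated and 0.132, 0.221 and 0.374 with OxLDL in sh-Luc, and 1.47, 2.16 and 3.72 untreated and 0.405, 0.710 and 0.888 with OxLDL in sh-PHLPP1. It was called lower in both lines (-2.39 ± 0.61, adjusted p = 0.0284, and -1.88 ± 0.52, adjusted p = 0.00916). The treated sh-Luc libraries lay near the level that 3 reads give, and the sh-Luc call was lost without any 1 of the same 5 sh-Luc libraries (adjusted p of up to 0.123). Mx2 lay just outside the threshold in sh-Luc (-1.27, adjusted p = 0.0607), at 13.7, 4.54 and 13.7 CPM untreated and 4.56, 3.60 and 5.17 with OxLDL.

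Of the other effectors, Eif2ak2, which encodes the RNA-activated kinase PKR that halts translation, fell in both lines (-0.61 and -0.95). Zbp1, a sensor of Z-form nucleic acid that can start necroptosis, fell in sh-Luc (-1.75 ± 0.35, adjusted p = 0.00829) whereas sh-PHLPP1 gave no call (-0.13). The call of Zbp1 was lost without OxLDL-treated sh-Luc replicate 2 (adjusted p = 0.0518) and that of Eif2ak2 in sh-Luc without that library or untreated replicate 1 or 3 (adjusted p of up to 0.0901). Bst2, the tether that holds budding virus at the cell surface, was called in neither line. Per base of transcript Bst2 was the most abundant member in untreated sh-Luc, at 422 ± 157 RPKM (CPM per kilobase of exon, mean ± SD, n = 3), and Mx1 the least, at 0.328 ± 0.184 RPKM.

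All 3 members of the PARP and DTX3L group fell in both lines. These ADP-ribosyltransferases and their partner ligase are known to act on chromatin and STAT signalling. Dtx3l fell from 78.4, 43.0 and 72.7 to 29.4, 28.0 and 30.4 CPM in sh-Luc and from 83.8, 95.3 and 83.2 to 22.2, 19.3 and 15.3 CPM in sh-PHLPP1. The treated sh-PHLPP1 libraries were the lowest of all 12, with log2 fold changes of -1.15 ± 0.20 (adjusted p = 0.00342) and -2.21 ± 0.20 (adjusted p = 3.77e-06).

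Parp14 fell to about a like extent in both lines, from 158, 93.6 and 172 to 48.2, 47.6 and 51.7 CPM in sh-Luc and from 158, 185 and 174 to 64.0, 58.3 and 47.9 CPM in sh-PHLPP1 (-1.52 ± 0.19 and -1.60 ± 0.19, adjusted p = 0.000393 and 3.02e-05). No treated library reached an untreated one. Parp9 fell as well (-1.09 in sh-Luc and -1.45 in sh-PHLPP1). Parp9 and Dtx3l overlap head to head on chromosome 16, sharing 458 exon bases on opposite strands, and the strand setting of the counting is not given in the sources used here, so reads of that stretch cannot be told apart.

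Ifi44l and Ifi44, neighbours on chromosome 3, were among the members that fell furthest. Ifi44l went from 91.5, 30.6 and 84.9 to 12.9, 10.3 and 10.9 CPM in sh-Luc and from 85.2, 72.1 and 66.5 to 8.17, 7.40 and 7.92 CPM in sh-PHLPP1. Its log2 fold changes of -2.60 ± 0.32 (adjusted p = 0.000281) and -3.25 ± 0.33 (adjusted p = 8.1e-06) were the lowest of any member in either line, and every treated library was below every untreated one. Ifi44 fell by 4.33-fold in sh-Luc and 3.29-fold in sh-PHLPP1, and Ifi35, whose product binds a partner called NMI, by 2.04-fold and 1.96-fold.

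The nuclear proteins were divided between the HIN-200 genes and the rest. Phf11d fell from 108, 50.7 and 105 to 32.4, 30.3 and 35.0 CPM in sh-Luc and from 79.3, 58.9 and 60.0 to 28.0, 26.8 and 40.5 CPM in sh-PHLPP1 (-1.43 ± 0.26 and -1.06 ± 0.26, adjusted p = 0.00435 and 0.00406), with no overlap. Sp100, a component of nuclear bodies, was just inside the threshold in sh-Luc, at 101, 50.3 and 100.05 CPM untreated and 47.1, 41.8 and 43.0 with OxLDL (-0.93 ± 0.24, adjusted p = 0.0313). Without any 1 of the same 5 sh-Luc libraries this call was lost (adjusted p of up to 0.126). In sh-PHLPP1 Sp100 fell by 2.05-fold (adjusted p = 0.00347).

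Ifi203 and Ifi204, of the HIN-200 family of DNA-binding proteins, were called in neither line with OxLDL. With OxLDL the CPM of Ifi204 was 16.8, 12.1 and 15.3 in sh-Luc against 45.4, 42.9 and 51.7 in sh-PHLPP1, with no overlap (1.67 ± 0.32, adjusted p = 0.000964). Ifi203 was likewise higher in sh-PHLPP1 after OxLDL (1.61, adjusted p = 0.0027). The HIN-200 genes are close copies in a cluster on chromosome 1, and Ifi203 overlaps Mndal by 37 bases on the same strand, so their reads could be divided wrongly.

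The remaining members have mixed roles. Apol9b, an apolipoprotein L gene, fell from 31.5, 10.1 and 34.9 to 4.70, 4.04 and 4.86 CPM in sh-Luc and from 31.3, 45.1 and 50.7 to 11.8, 13.6 and 18.6 CPM in sh-PHLPP1. Treated libraries lay below untreated ones in each line (-2.49 ± 0.39, adjusted p = 0.00182, and -1.53 ± 0.36, adjusted p = 0.00363), and the treated sh-PHLPP1 libraries lay above the treated sh-Luc ones. Its near-identical copy Apol9a gave the same calls (-1.71 and -1.03), so the pair cannot be taken as separate evidence.

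Trim30a, known to damp Toll-like receptor signalling in mouse, fell from 147, 70.9 and 148 to 55.0, 53.6 and 60.8 CPM in sh-Luc and from 108, 148 and 133 to 47.2, 37.3 and 29.0 CPM in sh-PHLPP1. Both falls were free of overlap (-1.11 ± 0.25, adjusted p = 0.0158, and -1.78 ± 0.26, adjusted p = 0.000123), and the first was lost without any 1 of the same 5 sh-Luc libraries (adjusted p of up to 0.0754). Lgals3bp, a secreted glycoprotein, also fell in both lines (-1.04 and -0.68) with the smallest change of the 22 genes in sh-PHLPP1 (adjusted p = 0.00525).

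Rtp4, a chaperone of receptor transport, fell in sh-Luc (-1.33 ± 0.17, adjusted p = 0.000385) whereas sh-PHLPP1 gave no call (-0.25). Xaf1, a pro-apoptotic factor, and Samd9l, an antiviral translation inhibitor, were called lower in sh-Luc (-0.95 and -0.67, adjusted p = 0.0286 and 0.0256), and both calls were lost without any 1 of the same 5 sh-Luc libraries (adjusted p of up to 0.12 and 0.121). In sh-PHLPP1 they were not called, at 0.23 and -0.05. Tor3a, an ATPase of the endoplasmic reticulum, lay just outside the threshold in sh-Luc (-0.40, adjusted p = 0.0627).

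Whether the lines differed in their response was tested by the interaction of line and OxLDL, which uses the same libraries as the split and so is no independent evidence for the classes. The response of sh-PHLPP1 was higher than that of sh-Luc for 12 members, where 11.1% of all genes were called higher, and lower for 2, where 13.6% were. The higher 12 were Ifit1, Rsad2, Oasl1, Isg15, Ifih1, Zbp1, Ifi204, Ifit3, Xaf1, Oas1g, Rtp4 and Oas1a. Ifit1 gave the largest difference, 4.03 ± 0.26 on the log2 scale (adjusted p = 1.6e-06), followed by Rsad2 at 3.46 ± 0.26 (adjusted p = 6.3e-06), Oasl1 at 3.22 ± 0.21 (adjusted p = 1.67e-06), Isg15 at 3.17 ± 0.53 (adjusted p = 0.00159) and Ifih1 at 1.97 ± 0.24 (adjusted p = 0.000224). The calls of Zbp1, Ifi204, Ifit3, Xaf1 and Oas1g were lost without untreated sh-Luc replicate 1 or 3, OxLDL-treated sh-Luc replicate 2 or 3, or OxLDL-treated sh-PHLPP1 replicate 3, with an adjusted p of up to 0.0734, 0.0652, 0.0778, 0.0689 and 0.12. The calls of Zbp1 and Ifit3 were also lost without OxLDL-treated sh-Luc replicate 1, that of Ifit3 without OxLDL-treated sh-PHLPP1 replicate 1, and that of Oas1g in 10 of the 12 fits that left out 1 library (all but those without replicate 2 of untreated sh-Luc or replicate 3 of untreated sh-PHLPP1). With the passage as a block Oas1g was not called either (1.11, adjusted p = 0.0618). The 5 largest, and those of Rtp4 and Dtx3l, held under every alternative tried.

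The members with a lower response in sh-PHLPP1 were Dtx3l (-1.06 ± 0.28, adjusted p = 0.0175) and Oas3 (-0.69 ± 0.19, adjusted p = 0.021), both of which fell in both lines and fell further in sh-PHLPP1. The call of Oas3 was lost without OxLDL-treated sh-Luc replicate 2 or 3 (adjusted p of up to 0.0512). For 26 members no difference was called, and the intervals set bounds: for Ddx58 and Dhx58 the approximate 95% intervals ran from -0.48 to 0.48 and from -0.49 to 0.56, while that of Mx1 ran from -1.08 to 2.12. The count of 12 higher responses was 19 without untreated sh-Luc replicate 2, 7 without any 1 of the 5 libraries named above, and 24 without both untreated libraries that stood apart. Of all genes, 1361 of 13334 were called higher in the first of these fits and 2228 of 13331 in the last, against 1451 of 13121 in the main fit.

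**Figure D4:**
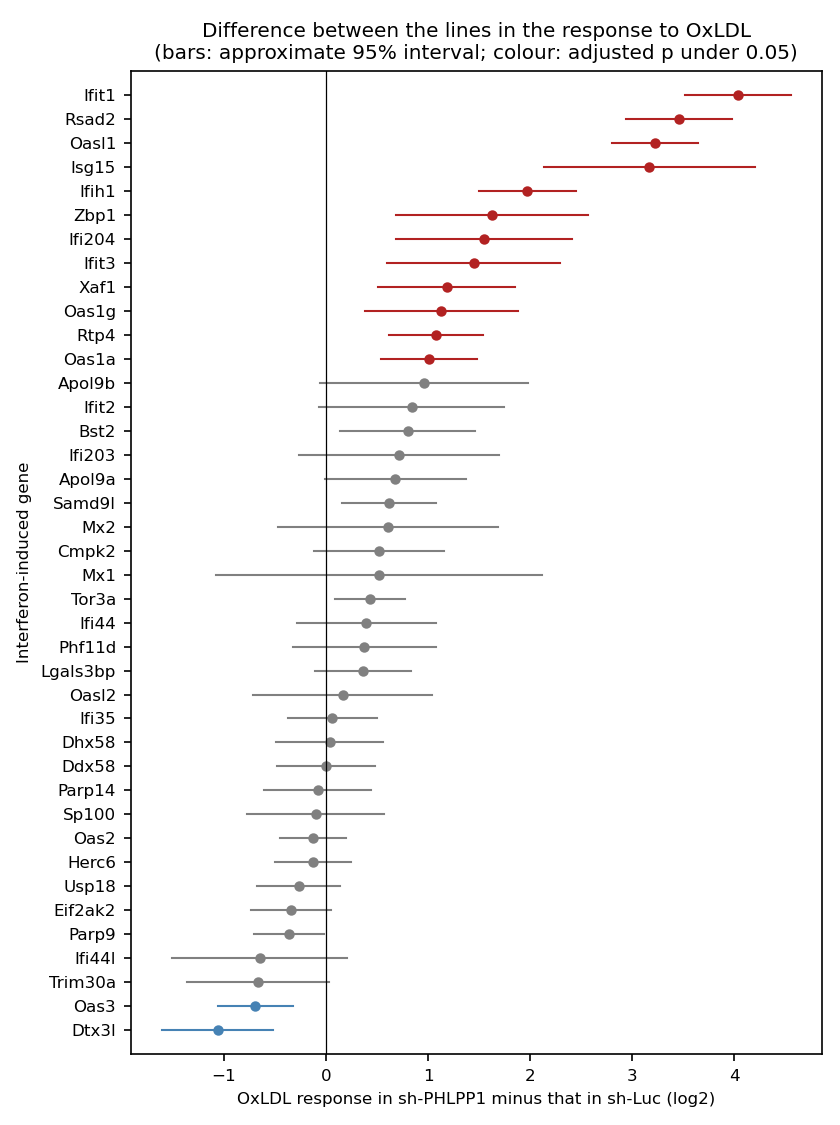
Difference between the lines in the response to OxLDL (sh-PHLPP1 minus sh-Luc, log2) for each of the 40 genes, with approximate 95% intervals (1.96 standard errors) and colour where the adjusted p was under 0.05. The values run from -1.06 for Dtx3l to 4.03 for Ifit1, with Ifit1, Rsad2, Oasl1, Isg15 and Ifih1 at the top.

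Before OxLDL few members were called between the lines. Between the untreated lines 2 members were called higher in sh-PHLPP1, where 14.9% of all genes were, and 3 lower, where 12.2% were. Oas1g (1.00, adjusted p = 0.0189) and Samd9l (0.55, adjusted p = 0.0304) were higher, and Ifit1 (-0.77, adjusted p = 0.0104), Oasl1 (-0.64, adjusted p = 0.00976) and Herc6 (-0.38, adjusted p = 0.0496) were lower. The call of Herc6 was lost with the passage as a block (-0.37, adjusted p = 0.0764) and in 10 of the 12 fits that left out 1 library. The median log2 difference was 0.02 over the members and 0.03 over all genes. The count of members lower was 9 without untreated sh-Luc replicate 2 and 1 without untreated sh-PHLPP1 replicate 2, and the count higher was 5 without untreated sh-PHLPP1 replicate 1 and 0 without its replicate 2 or 3 (2 at an unadjusted p under 0.05 by edgeR in each case). In the same order all genes gave 988 and 646 lower, and 3294, 869 and 903 higher. All 5 member calls were lost when only the 6 untreated libraries were fitted by edgeR. In that fit 3 members were lower and 2 higher at an unadjusted p under 0.05. Calls over all genes fell there too, to 308 lower and 425 higher of 12618, from 1599 and 1950 of 13121. Without both untreated libraries that stood apart the counts of members became 16 lower and 7 higher. There 2999 of 13331 genes were lower and 3268 higher.

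After OxLDL more members were called between the lines than before it, and so were more of all genes (7240 of 13121, against 3549 untreated). Called higher in sh-PHLPP1 were 18 members and called lower 6, where 27.6% of all genes were called in each direction. The 3 treated sh-PHLPP1 libraries all lay above the 3 treated sh-Luc libraries for 24 members, as they did for 34.7% of all genes, and all below for 8 members, as for 34.6% of all genes. Rsad2 was 7.87-fold, Oasl1 5.98-fold and Ifih1 4.53-fold higher in sh-PHLPP1, beside the 9.63-fold of Ifit1 and the 7.85-fold of Isg15. The 6 lower members were Oas3, Usp18, Parp9, Dtx3l, Eif2ak2 and Herc6, with log2 differences between -0.68 for Eif2ak2 and -0.39 for Usp18. This comparison shares its treated libraries with the comparisons within each line. The call of Dtx3l was lost without OxLDL-treated sh-PHLPP1 replicate 3 (adjusted p = 0.0731), and that of Bst2 (0.63, adjusted p = 0.0413) without any 1 of 8 libraries, which include all 6 OxLDL-treated ones (adjusted p of up to 0.173).

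Genes that act before and after the interferon receptor were counted from lists of the pathway. Of 20 ligand genes, 16 were in the table and none had enough reads to be tested: Ifnb1, which encodes interferon-β, had between 0 and 6 reads per library, or at most 0.338 CPM. Of 6 genes of the receptor and its signalling counted here (Ifnar1, Ifnar2, Jak1, Tyk2, Stat2 and Irf9), 1 was called lower with OxLDL in sh-Luc and 2 in sh-PHLPP1, where 3.09% and 28.4% of all genes were. Irf9, the DNA-binding subunit, was at 81.0, 66.9 and 82.6 CPM untreated and 49.2, 53.0 and 53.9 with OxLDL in sh-Luc, and at 101.4, 101.5 and 101.2 untreated and 66.5, 64.9 and 56.6 with OxLDL in sh-PHLPP1. It thus fell in both lines without overlap (-0.56 ± 0.11 and -0.69 ± 0.11, adjusted p = 0.00607 and 0.00019).

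Stat2 was called lower in sh-PHLPP1 (-1.08, adjusted p = 0.00212) and not in sh-Luc (-0.72, adjusted p = 0.075), and the interaction was called for 0 of the 6 genes by edgeR, also at an unadjusted p under 0.05 (Stat2 at -0.36, adjusted p = 0.444). The interaction was called higher for 11.1% of all genes and lower for 13.6%. Between the untreated lines 4 of the 6 were higher in sh-PHLPP1, where 14.9% of all genes were: Stat2 (0.78), Ifnar2 (0.73), Irf9 (0.40) and Tyk2 (0.37). The receptor chain Ifnar2 remained higher after OxLDL (0.84, adjusted p = 0.000137).

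Of 15 genes of nucleic acid and Toll-like receptor sensing that were in the table, 3 were called lower and 2 higher with OxLDL in sh-Luc, and 6 lower and 3 higher in sh-PHLPP1. The shares of all genes were 3.09% lower and 6.38% higher in sh-Luc, and 28.4% lower and 26.2% higher in sh-PHLPP1. Irf7, the interferon-induced factor that amplifies interferon production, was called lower in sh-Luc and not in sh-PHLPP1. It was at 463, 196 and 499 CPM untreated and 114, 117 and 122 with OxLDL in sh-Luc, and at 322, 392 and 426 untreated and 392, 347 and 444 with OxLDL in sh-PHLPP1. The sh-Luc fall was without overlap (-1.71 ± 0.27, adjusted p = 0.00195), the sh-PHLPP1 groups overlapped (0.05, adjusted p = 0.873), and the interaction was 1.77 ± 0.37 (adjusted p = 0.0063). Of the 15 genes, the interaction was called higher for Irf7 alone and lower for 3, where 11.1% and 13.6% of all genes were. After OxLDL, 5 of the 15 were called higher and 4 lower in sh-PHLPP1 than in sh-Luc, where 27.6% of all genes were in each direction. Ikbke, a kinase that activates IRF3 and IRF7, rose in both lines (1.24 and 2.30, adjusted p = 0.0288 and 9.89e-05), and Tlr4 fell in sh-PHLPP1 (-1.30, adjusted p = 0.000275).

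Of 8 genes that restrain the pathway, 1 was called higher and 1 lower with OxLDL in sh-Luc, and 3 higher and 4 lower in sh-PHLPP1. Of all genes, 6.38% were called higher and 3.09% lower in sh-Luc, and 26.2% higher and 28.4% lower in sh-PHLPP1. Socs3, which inhibits cytokine receptor kinases, was at 24.6, 61.8 and 27.8 CPM untreated and 79.0, 104 and 80.1 with OxLDL in sh-Luc, and at 14.2, 8.05 and 7.68 untreated and 222, 247 and 220.0 with OxLDL in sh-PHLPP1. It rose in both lines (1.20 ± 0.31, adjusted p = 0.031, and 4.53 ± 0.36, adjusted p = 1.04e-06), and more so in sh-PHLPP1 (interaction 3.33 ± 0.45, adjusted p = 0.000411). Socs1, the main inhibitor of this kind for interferon receptors, was at 1.45, 1.87 and 2.05 CPM with OxLDL in sh-Luc against 5.47, 5.15 and 7.40 in sh-PHLPP1. Its response was higher in sh-PHLPP1 by 2.50 ± 0.30 on the log2 scale (adjusted p = 0.000183).

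The authors' deposited tables cover 3 of these comparisons. For sh-Luc with OxLDL against untreated, the authors' deposited table called 36 members lower and 0 higher at the threshold of 0.05, and all 31 members called here were among them. Between the OxLDL-treated lines the authors' deposited table lists 39 members, with 22 called higher and 8 lower in sh-PHLPP1, among them all 24 called here. Between the untreated lines the authors' deposited table called 1 member higher and 2 lower, all with the same sign as the calls here. The log2 fold changes differed by at most 0.0299 from those of the authors' deposited tables, and no member was called in opposite directions. The authors' values come from the same libraries, so they give no independent test. The share of all genes called in the authors' deposited tables was not computed.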

How the data were processed

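The labels and submitters' processing notes name FastQC, Trimmomatic, HTSeq and DESeq2 and the build GRCm38; these sources give neither aligner nor strand setting. The submitters' deposited file holds raw read counts per gene for 12 libraries, and the authors' deposited comparisons hold log2 fold changes and p-values. The counts were scaled by TMM and tested with edgeR 4.0.16 (R 4.3.3; filterByExpr, quasi-likelihood test, 4 group means over all 12 libraries, no block), with Benjamini-Hochberg adjustment over the 13121 genes tested and a threshold of 0.05. The test of OxLDL in sh-Luc was run on simulated counts with known fold changes. These had 1 spread for all genes and no library that stood apart, so that check does not cover such libraries. The labels give replicates 1, 2 and 3 of every group passages 9, 10 and 11, so the number marks a shared passage and the fit with passage as a block was the paired alternative; the deviations of same-numbered libraries from their group means correlated above 0.1 in 4 of 12 pairs, and a library correlated best with its own number in 10 of 24 checks. Rows without a symbol (1632) took 0.397% to 0.505% of reads and stayed in the fits under their gene identifiers. DESeq2 1.42.0, other scalings, no filter, smaller fits and left-out libraries were the alternatives. Positions and RPKM lengths come from the annotation of GRCm38, and the start-site windows from RefSeq on GRCm38.p6. Members and gene lists were chosen with earlier results of these data known. One pathway gene and one marker gene of those lists are not reported here. Values in every library are given for up to 3 members per role class with the largest changes, for every member raised in sh-PHLPP1, for members near the threshold and for their neighbours; 9 role classes were used. Likeness of patterns over the libraries was not computed, since the libraries fall into 4 groups.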

Additional observations from a re-analysis of the deposited data

Results flagged for a closer look

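For 14 of the 40 members the response to OxLDL differed between the lines, as tested by the interaction of line and OxLDL (edgeR, log2 response of sh-PHLPP1 minus that of sh-Luc). Of all genes tested, 11.1% were called higher and 13.6% lower in this test. It uses the same libraries as the split of the members, so it is no independent evidence for the classes. The response was higher in sh-PHLPP1 for Ifit1 (4.03), Rsad2 (3.46), Oasl1 (3.22), Isg15 (3.17) and Ifih1 (1.97), the 5 members called higher with OxLDL there. It was also higher for Zbp1 (1.63), Ifi204 (1.54), Ifit3 (1.45), Xaf1 (1.18), Oas1g (1.13), Rtp4 (1.08) and Oas1a (1.01), which were not called in sh-PHLPP1. It was lower for Dtx3l (-1.06) and Oas3 (-0.69), which fell in both lines. The adjusted p ran from 1.6e-06 for Ifit1 to 0.0472 for Oas1g, with 3 libraries in each group. That of Oas1g was 0.0618 with the passage as a block. The calls of Zbp1, Ifi204, Ifit3, Xaf1, Oas1g and Oas3 were each lost in some of the fits that left out 1 library.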

How the results depend on the processing

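Over 20 alternative fits, 75 of the 101 member calls were kept under every fit that could test them, and 26 were lost under at least 1. Leaving out 1 library moved no member's fold change by more than 1.34 times. The 22 members lowered in both lines became 18 to 23, the 31 lowered in sh-Luc 22 to 38, the 22 lowered in sh-PHLPP1 22 or 23 and the 5 raised there 5 or 6. Between the untreated lines, the 3 members lower became 0 with only the 6 libraries compared, 16 without both untreated libraries that stood apart, 18 without all 3 that did and 1 to 9 with 1 library left out; the 2 higher became 0, 7, 8 and 0 to 5 in the same order. For the interaction, the 12 higher became 6 with scaling by library size alone, 24 and 25 without the libraries that stood apart and 7 to 19 with 1 library left out, and the 2 lower became 4 by library size alone and 1 or 2 with 1 library left out. Calls over all genes moved with the setting too. Between the untreated lines 3549 genes were called in the main fit, 733 with only the 6 libraries compared, 6267 without both and 7742 without all 3 libraries that stood apart. Higher interactions were called for 1451 genes in the main fit, 569 by library size alone, 2228 without both and 2697 without all 3. Leaving out all 3 libraries was chosen after the data were seen. The cause of these shifts was not tested, except that scaling by library size alone moved the median of all genes to -0.46 for OxLDL in sh-PHLPP1 and to -0.43 for the interaction, so members read relative to that shift. Reversed values were Tor3a with OxLDL in sh-PHLPP1, -0.40 under library size alone against 0.03, and Ifi44l between the untreated lines, -0.35 without both and -0.35 without all 3 libraries that stood apart against 0.11. DESeq2 called 37 members lower in sh-Luc; over all genes it called 1948 there against 1242 by edgeR, and the fit of 6 libraries 2944. With the passage, which is the replicate number, as a block, 31 members were lower in sh-Luc, 23 lower and 5 higher in sh-PHLPP1, and 11 had a higher interaction; Ifit3 gained its call with OxLDL in sh-PHLPP1, Oas1g lost its interaction and Herc6 its call between the untreated lines, and no other member call changed. With 3 libraries a group, members under about 1 CPM such as Mx1 are limited by depth.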
